A study of Mus musculus with 4 samples.

Results

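The outer limiting membrane of the retina and the polarity proteins that organise it were followed through 10 genes, chosen by name and all present among the 23336 genes of the table. They are the Crumbs genes Crb1 and Crb2, the PALS family scaffolds Mpp5 and Mpp3, the PAR genes Pard3 and Prkci, the cadherin and catenin genes Cdh2, Ctnnb1 and Ctnna1, and the junction scaffold Tjp1. RNA-seq had been made from retinas of C57/Bl6 mice at postnatal day 8, with 2 libraries from wild-type littermates (WT) and 2 from Opn4-DTA/DTA mice. In the latter both copies of Opn4, the melanopsin gene, carry the diphtheria toxin A chain, so the toxin is made only where the Opn4 locus is active, in intrinsically photosensitive retinal ganglion cells. Missing melanopsin and missing cells cannot be told apart in such mice. The study's title names the placing of cones by these ganglion cells, and the question asked of the 10 genes is whether their transcripts differed between the genotypes. The labels call the tissue dissociated cells in one place and retinal extracts in another, and leave unstated whether separate animals gave the 2 libraries of a group. The p-values therefore measure a spread between libraries that may be technical.

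The outer limiting membrane is a belt of adherens junctions between Muller glia and the inner segments of photoreceptors, lying just outside the layer of photoreceptor nuclei. On its apical side sits the Crumbs complex, in which the short inner tail of a Crumbs protein binds a PALS scaffold. Next to it lies the PAR complex of a scaffold and an atypical protein kinase C. Below them N-cadherin binds its like on the neighbouring cell and is tied to actin by beta and alpha catenin. In mice, loss of Crumbs proteins lets photoreceptor nuclei slip through gaps in this belt, and variants of human CRB1 cause inherited retinal dystrophies.

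The promoters of the Crumbs pair are shown because these paralogs stood at like levels per length while one varied more between libraries than the other. Each line holds the 250 bases before the annotated start, 5′ to 3′ on the gene's strand (RefSeq, GRCm38.p6). The Crb1 stretch is chr1:139377077-139377326 on the minus strand and that of Crb2 is chr2:37775999-37776248 on the plus strand. Capitals mark the letters CCAAT and GGGCGG (a GC box) on either strand, and the 2 motifs do not overlap there.
Crb1: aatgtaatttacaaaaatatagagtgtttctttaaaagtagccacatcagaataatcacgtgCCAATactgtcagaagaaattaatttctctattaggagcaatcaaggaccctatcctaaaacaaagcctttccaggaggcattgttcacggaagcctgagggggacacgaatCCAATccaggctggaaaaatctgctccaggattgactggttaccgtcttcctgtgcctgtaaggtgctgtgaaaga
Crb2: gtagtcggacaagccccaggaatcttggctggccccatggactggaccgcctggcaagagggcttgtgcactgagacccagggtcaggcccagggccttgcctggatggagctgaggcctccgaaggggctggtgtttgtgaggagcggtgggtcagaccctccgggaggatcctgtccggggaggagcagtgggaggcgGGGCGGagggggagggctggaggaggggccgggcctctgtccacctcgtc
Bases G and C made up 41.6% of the Crb1 stretch and 68.8% of that of Crb2. CCAAT occurred at 2 places in Crb1 and GGGCGG at 1 place in Crb2. Among all 32851 listed promoters, 33.8% hold CCAAT and 32.7% hold GGGCGG in the same window. The letters TAATCC, bound by the photoreceptor homeodomain factors CRX and OTX2, are in 6.25% of all promoters and in neither of these windows. For each of the pair the window lies before 1 annotated start, and starts of other isoforms were not searched. Of the 10 genes 6 had a listed promoter.

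Total counts ranged from 22202382 to 60833968 per library. The deposited values are group means, from which the counts of each library were solved. Which sample label a solved library belongs to is not known. Within each genotype, library a is the one with the larger size factor and library b the one with the smaller. All levels below are normalized counts, that is counts divided by the authors' size factor. Opn4 had 369 and 161 counts in WT libraries a and b and 1 and 0 counts in Opn4-DTA/DTA libraries a and b, as the labels would have it. The tissue's own markers were present, since no gene of the rod, cone or Muller glia marker lists was at 0 in all libraries. The WT libraries differed from each other more than the Opn4-DTA/DTA libraries did, with a median absolute difference over all genes tested of 0.20 against 0.09 on the log2 scale.

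None of the 10 genes passed the test between the genotypes, and the mean of each in Opn4-DTA/DTA lay within 13.1% of that in WT. The values ran from Crb1, 13.1% lower, to Mpp3, 2.14% higher. The test was limma on log2(normalized count + 1) over all 15003 genes whose mean reached 10 normalized counts, with Benjamini-Hochberg adjustment. All 10 genes passed this filter, 0 of 10 had an adjusted p under 0.05 against 0.02% of all genes tested, and the lowest adjusted p was 0.9997. At an unadjusted p under 0.05 the count was again 0 of 10, against 1.66% of all genes. The authors' deposited table, for which the submitters' processing notes name DESeq2 among the tools, also gave 0 of 10 at an adjusted p under 0.05 (0.113% of all genes). The 95% interval of every one of the 10 differences stayed within 1.5-fold in either direction. Their half-widths ran from 0.22 for Ctnna1 to 0.38 for Crb1 on the log2 scale, where the median of all genes was 0.31. In whole retina, fewer cells of a type and less RNA per cell cannot be told apart. Of all 15003 genes tested, Ddx3y had the largest rise in Opn4-DTA/DTA, a log2 fold change of 6.01. Ddx3y lies on the Y chromosome, so the groups may differ in the sex of the animals. Sex and genotype cannot be told apart here, and the part of sex in the 10 genes was not tested.

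**Figure D1:**
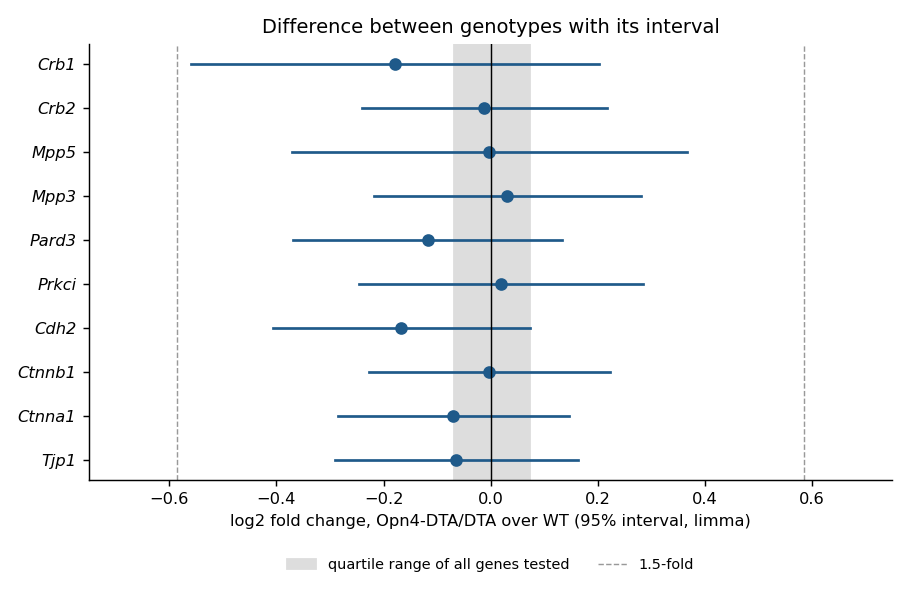
Log2 fold change of each gene (point) with its 95% interval from limma (line), Opn4-DTA/DTA over WT, 2 libraries per group; the grey band holds the quartile range of all 15003 genes and the dashed lines mark 1.5-fold. Every interval includes 0, and the widest, of Crb1, runs from -0.56 to 0.20.

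The Crumbs gene Crb1, which encodes a large transmembrane protein of the apical membrane (chr1:139198254-139377076, minus strand, mm10 as in the deposited table), stood at 6135 normalized counts in library a and 8881 in library b of WT, and at 6402 and 6644 in Opn4-DTA/DTA libraries a and b. WT library b stood above the other 3, and both Opn4-DTA/DTA values lay between the WT values. The means were 7508 ± 1942 (SD, n = 2) in WT and 6523 ± 171 (SD, n = 2) in Opn4-DTA/DTA. On the log2 scale the difference was -0.18 (SE 0.16, limma adjusted p = 0.9997). The interval ran from 1.47-fold lower to 1.15-fold higher. One library decided this value. Without WT library a the log2 fold change was -0.45, and without WT library b it was 0.09. These fits leave a single WT library, so their p-values are not given. Crb1 is transcribed into several isoforms, some of them photoreceptor-specific in mice, and the gene counts do not separate them.

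Crb2, the other Crumbs gene described here (chr2:37776249-37799103, plus strand), had 3224 and 3472 normalized counts in the WT libraries and 3467 and 3176 in the Opn4-DTA/DTA libraries. The groups overlapped in part, with 1 WT value highest and 1 Opn4-DTA/DTA value lowest. The difference was -0.01 on the log2 scale (SE 0.10, limma adjusted p = 0.9997), with an interval from 1.18-fold lower to 1.16-fold higher. The level of Crb2 relative to Crb1 in the same library, which does not depend on the size factors, was 0.525 and 0.391 in WT and 0.541 and 0.478 in Opn4-DTA/DTA.

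Of the PALS family scaffolds, Mpp5 (PALS1) varied within WT and Mpp3 varied little. Mpp5 (chr12:78748947-78840713, plus strand) had 1637 and 2289 normalized counts in the WT libraries and 1869 and 1998 in the Opn4-DTA/DTA libraries. As for Crb1, the WT values enclosed the Opn4-DTA/DTA values. Between genotypes it differed by -0.0028 on the log2 scale (SE 0.16, limma adjusted p = 0.9997). Its sign turned with the library left out, to -0.24 with WT library a left out and 0.24 with WT library b left out. Mpp3, a related membrane-associated scaffold (chr11:101999653-102026955, minus strand), had 961 and 1025 normalized counts in WT and 1020 and 1009 in Opn4-DTA/DTA. All 4 libraries lay close together, with a log2 difference of 0.03 (SE 0.11, limma adjusted p = 0.9997).

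Neither PAR gene passed. Pard3, the scaffold of the PAR complex (chr8:127299612-127402059, plus strand), had 1758 and 1579 normalized counts in WT and 1597 and 1478 in Opn4-DTA/DTA. Library a was above library b in both groups, and the groups overlapped between 1579 and 1597. They differed by -0.12 on the log2 scale (SE 0.11, limma adjusted p = 0.9997). Prkci, the atypical protein kinase C iota (chr3:30995771-31052740, plus strand), had 2491 and 2990 in WT and 2710 and 2823 in Opn4-DTA/DTA, again with both Opn4-DTA/DTA values inside the WT range. The difference was 0.02 on the log2 scale (SE 0.11, limma adjusted p = 0.9997).

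Cdh2, which encodes N-cadherin (chr18:16588877-16809049, minus strand), was the only one of the 10 genes whose libraries did not overlap between the groups. It had 9738 and 8774 normalized counts in WT libraries a and b and 8684 and 7806 in Opn4-DTA/DTA libraries a and b. Both WT values lay above both Opn4-DTA/DTA values, with 8774 and 8684 next to each other. The means were 9256 ± 682 (SD, n = 2) and 8245 ± 621 (SD, n = 2), 10.9% lower in Opn4-DTA/DTA. The log2 fold change of -0.17 (SE 0.10) had an unadjusted limma p of 0.145 and an adjusted p of 0.9997, with an interval from 1.33-fold lower to 1.05-fold higher. That 1 of 10 genes did not overlap stands against 23.5% of all genes tested (12.3% in the lower direction), a smaller share than the background. In the authors' deposited table the log2 fold change of Cdh2 was -0.12 (SE 0.07, p-value 0.0771, adjusted p 0.9997), the lowest p-value of the 10 genes there too. The sizes of the deposited and limma fold changes cannot be set side by side. For Opn4 the deposited log2 fold change was -0.60 and that of limma -8.03.

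The catenins that tie N-cadherin to actin did not pass. Ctnnb1, beta catenin, which also carries the Wnt signal to the nucleus (chr9:120933400-120960507, plus strand), had 29482 and 28098 normalized counts in WT and 29293 and 28187 in Opn4-DTA/DTA. The Opn4-DTA/DTA values lay inside the WT range. The groups differed by -0.0023 on the log2 scale (SE 0.10, limma adjusted p = 0.9997), with an interval from 1.17-fold lower to 1.17-fold higher. Exons of Ulk4 on the opposite strand cover 14.6% of the Ctnnb1 exon bases in GENCODE M21, and whether the counting used the strand is not given in the sources used here. Ctnna1, alpha catenin (chr18:35118912-35254775, plus strand), had 5561 and 5085 in WT and 5036 and 5096 in Opn4-DTA/DTA. Its groups overlapped at the 5085 of WT library b, with a log2 difference of -0.07 (SE 0.09, limma adjusted p = 0.9997). Tjp1, the scaffold ZO-1 that joins junction proteins to actin (chr7:65296165-65371244, minus strand), had 6671 and 7227 in WT and 6945 and 6351 in Opn4-DTA/DTA. These values interleave, with a log2 difference of -0.06 (SE 0.10, limma adjusted p = 0.9997).

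**Figure D2:**
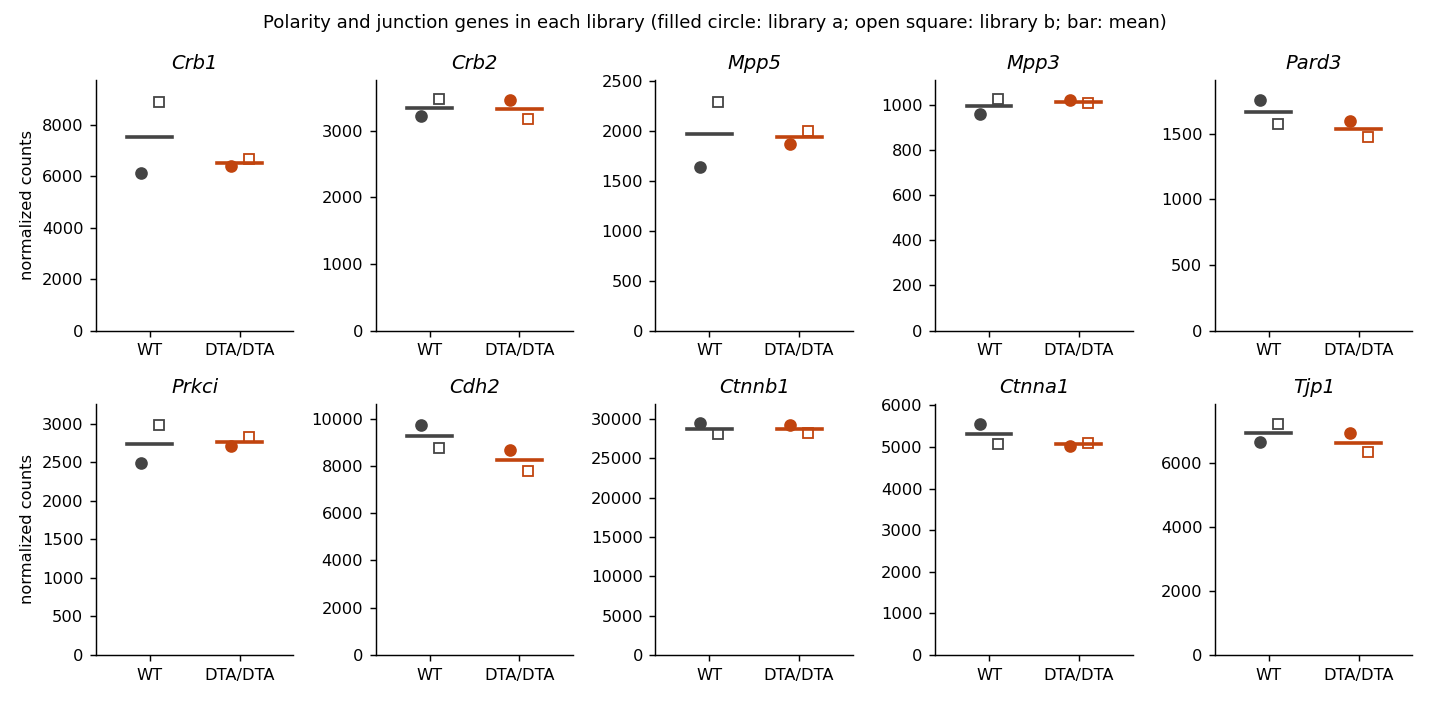
Normalized counts of each gene (vertical axes from 0) in the 2 WT and 2 Opn4-DTA/DTA libraries; filled circles are library a, open squares library b and bars the group means. Cdh2 alone has both WT libraries above both Opn4-DTA/DTA libraries, whereas WT library b stands apart for Crb1 at 8881 and Mpp5 at 2289.

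As a list, 8 of the 10 genes had a log2 fold change below 0 and 2 above, with a median of -0.04, where 7504 of all 15003 genes tested were below 0 and their median was -0.000096. With scaling by library totals, which lifted the median of all genes to 0.03, 5 of the 10 were below 0 and their median was -0.0094. Leaving out WT library a brought the median of the 10 to -0.08, and leaving out WT library b to 0.02. The summed normalized counts of the 10 genes were 67658 and 69422 in WT and 67022 and 64567 in Opn4-DTA/DTA. Ctnnb1 gave more of that sum than any other of the 10 genes.

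Between the 2 WT libraries, Crb1, Mpp5 and Prkci differed more on the log2 scale than any of the 10 genes did between genotypes. The WT difference is between single libraries, and that between genotypes is between means of 2. At equal spread the former is expected to be larger. In WT, library b was 1.45 times library a for Crb1 (exact Clopper-Pearson 95% interval of the split of counts, 1.39 to 1.503), 1.40 times for Mpp5 (1.30 to 1.505) and 1.20 times for Prkci (1.13 to 1.28). These intervals cover counting error only. The same ratio in Opn4-DTA/DTA was 1.04 for Crb1 (1.01 to 1.07), 1.07 for Mpp5 (1.01 to 1.13) and 1.04 for Prkci (0.994 to 1.09). The WT difference of Crb1 was larger in size than that of 87.5% of all genes tested and the difference of Mpp5 larger than that of 84.7%. The SD in WT was 25.9% of the mean for Crb1, where counting alone gives 1.36%, and 23.5% for Mpp5, where counting alone gives 2.65%. At the other end, the SD of Mpp3 in Opn4-DTA/DTA was 0.763% of its mean and that of Ctnna1 0.835%. Cdh2, Pard3 and Ctnnb1 were lower in library b of both genotypes, with ratios of b to a of 0.901 and 0.899 for Cdh2 and 0.898 and 0.925 for Pard3. Crb2, Mpp3 and Tjp1 were higher in library b of WT and lower in library b of Opn4-DTA/DTA.

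**Figure D3:**
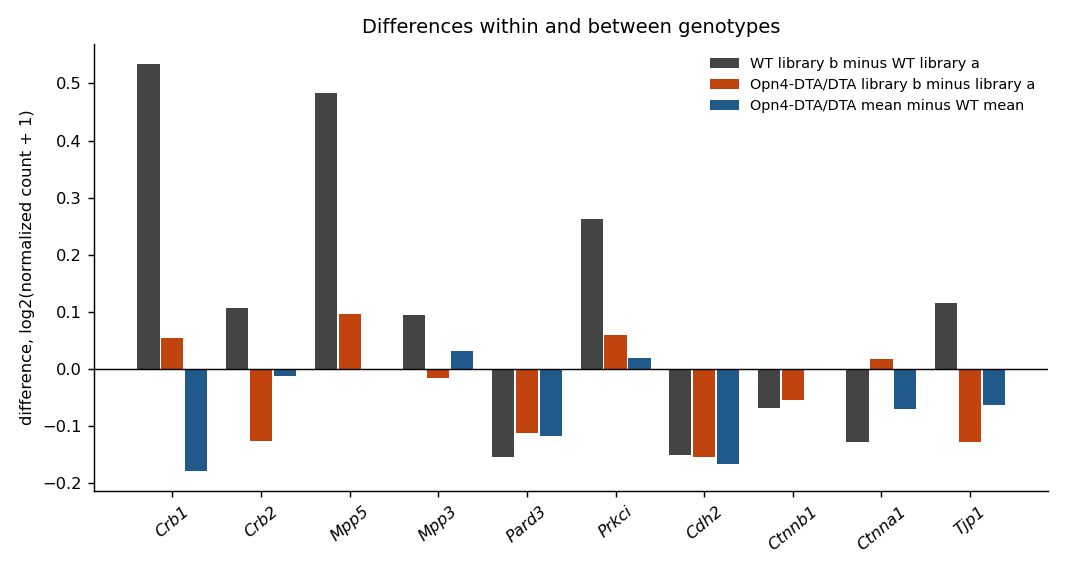
Differences in log2(normalized count + 1) for each gene: WT library b minus library a (grey), Opn4-DTA/DTA library b minus library a (orange) and the difference of the group means (blue). The grey bars of Crb1 at 0.53 and Mpp5 at 0.48 are longer than every blue bar, the longest of which is Crb1 at -0.18.

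Markers of other cells moved between the same WT libraries. The summed level of 10 pigment epithelium markers came to 10786 normalized counts in library a and 4734 in library b of WT, and to 6227 and 4978 in the Opn4-DTA/DTA libraries. Of these markers 10 of 10 were higher in WT library a, as were 6 of 6 microglia, 4 of 4 astrocyte, 8 of 10 vessel and 10 of 11 rod markers. The other way went 6 of 9 cone markers and 6 of 9 progenitor and cell cycle markers, higher in WT library b. Of all 15003 genes tested, 7540 were higher in WT library a. None of these markers was at 0 in all libraries. Muller glia markers, from the glia that share the junction belt with photoreceptors, were split in WT, with 9 of 16 higher in library b. Their summed level ranged from 94866 to 97706 in WT and from 90372 to 92068 in Opn4-DTA/DTA. Rod markers summed to between 555086 and 649720 in WT and between 526402 and 541236 in Opn4-DTA/DTA, and cone markers to between 29042 and 30093 and between 25901 and 26465. The ranges of these 3 lists do not overlap and lie lower in Opn4-DTA/DTA, although 0 of their genes passed in limma (at an unadjusted p under 0.05, 0 of 16 Muller glia, 1 of 11 rod and 3 of 9 cone markers, beside 1.66% of all genes). Of 9 progenitor and cell cycle markers, 0 passed in limma, 5 had an unadjusted p under 0.05, and the groups did not overlap in 7, with 6 higher and 1 lower in Opn4-DTA/DTA (23.5% of all genes in either direction). Their median log2 fold change was 0.39, and their summed level ranged from 38514 to 43821 in WT and from 39218 to 40774 in Opn4-DTA/DTA. The part of these marker lists in the values of the 10 genes was not tested.

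Per kilobase of exon the junction genes stood above the polarity genes in every library, Ctnnb1 highest. Exon lengths were taken from GENCODE M21 and may differ from the gene models the authors counted. Ctnnb1 averaged 5540 normalized counts per kilobase, above 99.2% of the 13538 tested genes with a length, followed by Cdh2 at 1085. Tjp1 at 870 and Ctnna1 at 808 overlapped in their ranges over the 4 libraries. Next came Crb2 at 498, Prkci at 496 and Crb1 at 486, which overlapped and cannot be ordered. Mpp5 at 222 was below all of these, and Pard3 at 111 and Mpp3 at 107 overlapped at the bottom. The deposited location of Pard3 (mm10, chromosome 8 from 127299612 to 127402059) spans 102448 bases of the 548394 that GENCODE gives the gene. With only the exons inside that location, Pard3 would stand at 239 per kilobase, above Mpp5 at 223, so its place in the order is uncertain. Each of the other 9 deposited locations holds at least 91.5% of its gene's exon bases.

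**Figure D4:**
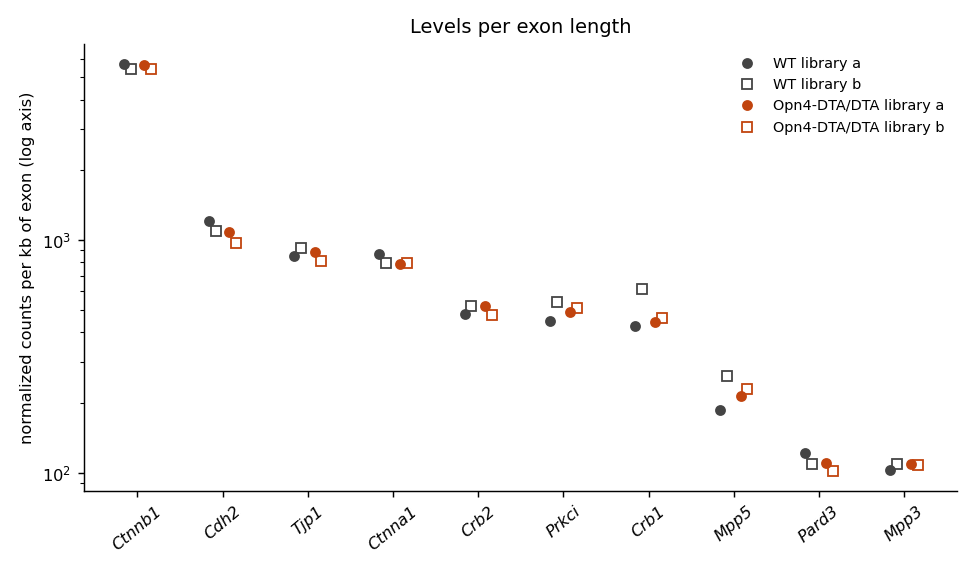
Normalized counts per kilobase of GENCODE M21 exon (log axis) in each of the 4 libraries, genes ordered by their mean. Ctnnb1 at 5540 stands apart from the rest, and Crb2, Prkci and Crb1 overlap between 474 and 518.

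The ratio of 2 genes within a library was compared for 5 pairs. The level of Cdh2 relative to Ctnnb1 was 0.330 and 0.312 in the WT libraries and 0.296 and 0.277 in the Opn4-DTA/DTA libraries. The groups did not overlap, with a log2 difference of -0.16 (exact two-sided permutation p = 0.333, adjusted p = 0.833 over the 5 ratios), and 0.333 is the smallest p that 2 against 2 libraries allow. Ctnna1 relative to Ctnnb1 was 0.189 and 0.181 in WT and 0.172 and 0.181 in Opn4-DTA/DTA, a log2 difference of -0.07 (exact two-sided permutation p = 0.333, adjusted p = 0.833). Its groups did not overlap either, but WT library b and Opn4-DTA/DTA library b agree to the third decimal. The ratios of Crb2 to Crb1, Mpp3 to Mpp5 and Prkci to Pard3 overlapped between the groups, and each of these 3 changed sign when 1 WT library was left out. Prkci to Pard3 was 1.42 and 1.89 in WT and 1.70 and 1.91 in Opn4-DTA/DTA.

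The wider polarity and junction machinery, 62 genes in 6 lists, held no gene that passed. Of these, 61 passed the filter, 0 passed in limma (against 0.02% of all genes), 0 had an unadjusted p under 0.05 (against 1.66%), and 0 differed by 1.5-fold or more (against 2.35%). The libraries of the groups did not overlap in 14 of the 61, or 23.0%, beside 23.5% of all genes. Log2 fold changes ran from -0.39 for Marveld2, a tricellular junction protein, to 0.26 for Tjp3, and 33 were below 0.

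Among 10 partners of Crumbs and PALS, 0 passed and 8 were below 0, with a median log2 fold change of -0.05. Mpp4, a photoreceptor PALS family scaffold, stood at 8828 ± 1244 (SD, n = 2) in WT and 7925 ± 104 (SD, n = 2) in Opn4-DTA/DTA, with WT library a at 9708 above the other 3 libraries. Inadl (PATJ), a multi-PDZ protein bound by PALS1, stood at 635 ± 51.7 and 560 ± 18.6, and its groups did not overlap. Lin7c, a small PDZ protein that pairs with PALS scaffolds, stood at 11213 ± 328 and 10884 ± 388.

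Among 10 partners of the PAR complex, 0 passed, 6 were above 0 and 4 below, with a median of 0.04. The small GTPase genes were the most abundant, Cdc42 at 12996 ± 829 (SD, n = 2) in WT and 13471 ± 33.7 in Opn4-DTA/DTA. Rac1 stood at 9225 ± 850 and 9577 ± 54.0. Both kinase genes with the lowest p had lower means and groups that did not overlap, Stk11 (LKB1, mammalian PAR4) at 3085 ± 140 and 2815 ± 34.4 and Mark2 (PAR1) at 3240 ± 24.2 and 2989 ± 29.3. Their unadjusted limma p was 0.194 and 0.229. In the whole list the groups did not overlap in 3 of 10 genes, all lower in Opn4-DTA/DTA. Of all genes tested, 23.5% did not overlap in either direction and 12.3% in the lower direction.

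Of 6 basolateral polarity genes 0 passed and 5 were below 0 (median -0.05). Llgl2, a Lethal giant larvae homologue that opposes the PAR complex, had the lowest p of the 61 genes. It had 7027 and 6827 normalized counts in WT and 6239 and 6123 in Opn4-DTA/DTA. Both WT values lay above both Opn4-DTA/DTA values, the log2 fold change was -0.16 (SE 0.09), and the unadjusted limma p was 0.0975 (adjusted p = 0.9997). Dlg1 stood at 3465 ± 257 and 3233 ± 49.9, and Erbb2ip, a protein of the Scribble family, at 7650 ± 286 and 7599 ± 620.

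Of 14 tested adherens junction genes 0 passed and 7 were on each side of 0 (median 0.0030). Pvrl1 (nectin 1), an adhesion protein of adherens junctions, stood at 4996 ± 89.5 (SD, n = 2) in WT and 4489 ± 201 in Opn4-DTA/DTA without overlap. Its binding partner Mllt4 (afadin) stood at 6176 ± 191 and 5952 ± 642, and the actin crosslinker gene Actn4 at 5593 ± 135 and 5284 ± 2.46. The single untested gene, Ctnna3, had a mean under 10 normalized counts.

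Of 11 tight junction genes 0 passed and 8 were above 0 (median 0.06). Jam2, a junctional adhesion molecule, was the most abundant at 10510 ± 551 (SD, n = 2) in WT and 10613 ± 174 in Opn4-DTA/DTA. Among 10 genes of the apical actin cortex, 0 passed (median -0.0091). Cd44, a surface protein of Muller glia microvilli, stood at 187 ± 1.82 and 159 ± 30.1, and Slc9a3r1, which links membrane proteins to ezrin, at 412 ± 37.5 and 436 ± 19.9. The myosin gene Myh10 stood at 7315 ± 489 and 7308 ± 649, and Rhoa at 7384 ± 515 and 7226 ± 83.9.

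**Figure D5:**
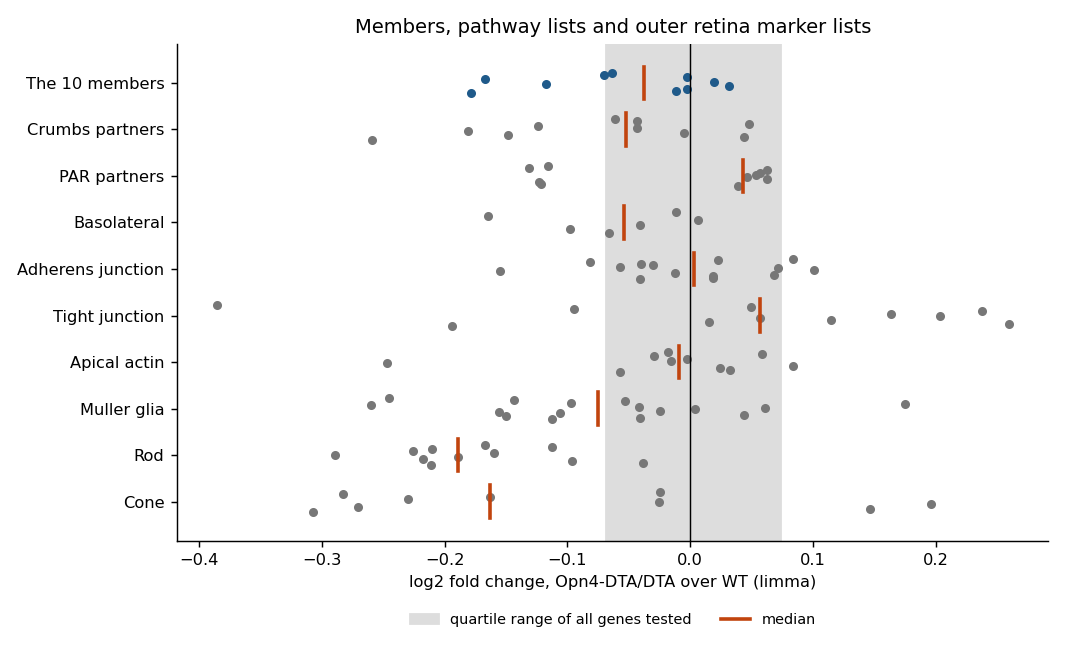
Log2 fold change (limma, Opn4-DTA/DTA over WT) of each tested gene in the set of 10, the 6 pathway lists and the Muller glia, rod and cone marker lists; orange bars are medians and the grey band holds the quartile range of all 15003 genes. The median of the 10 genes is -0.04, that of Muller glia markers -0.07, of rod markers -0.19 and of cone markers -0.16.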

How the data were processed

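The authors deposited 1 table of group means and its comparison. Per the file headers and the values, its signal columns hold gene counts divided by size factors and averaged over the 2 libraries of a group. The authors' log2 fold change, standard error, test statistic (a score), p-value and adjusted p-value stand beside them. The submitters' processing notes name FastQC, STAR, HTSeq and DESeq2 with no version, and the build mm10. 1 line of the table was empty, and the second sheet, which repeats rows of other genes, was not used.

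The whole counts of both libraries were computed from each mean, with exactly 1 solution (relative tolerance 3e-13) for each of the 17757 WT and 18327 Opn4-DTA/DTA means above 0. Then limma 3.58.1 in R 4.3.3 was fitted with a mean-variance trend to log2(normalized count + 1) for genes with a mean of at least 10, after a test on simulated data. Fold changes on this scale understate those of low genes. A level of 3 counts corresponds to between 1.64 and 4.59 normalized counts.

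The 10 genes, the 15 gene lists (6 pathway lists and 9 of cell markers, 154 genes with the 10, all in the table) and the tests were chosen with earlier results of these data known. Named from each pathway list were the 2 most abundant genes and the 2 with the lowest p, and some genes are not reported here. Of the cell lists, lens, progenitor and cell cycle markers had medians of 0.58 (4 tested) and 0.39 (9 tested) on the log2 scale, and 0 passed in limma. Medians were -0.25 for pigment epithelium, 0.14 for vessel, 0.17 for astrocyte and 0.13 for microglia markers, also with 0 passing. The most abundant marker of 7 of the 9 cell lists stood, as the mean in WT and then in Opn4-DTA/DTA, at 16673 and 17400 for Dkk3 (Muller glia), 10903 and 8810 for Opn1sw, 2336 and 1597 for Ttr, 10795 and 10467 for Kdr, 3819 and 4695 for Pdgfra, 88.6 and 76.8 for Bfsp2, and 728 and 785 for Csf1r.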

Additional observations from a re-analysis of the deposited data

How the results depend on the processing

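With 2 libraries per group, a single library moves most values. Over the 4 fits that leave out 1 library, between 10 and 306 genes passed (2 to 185 higher, 8 to 121 lower) against 3 with all libraries (1 higher, 2 lower), between 0 and 1 of the 10 genes passed (Crb1, without WT library a), and the median of the 10 ranged from -0.079 to 0.018. In these fits the lone library is assumed to vary like the others. The log2 fold change then ranged from -0.45 to 0.088 for Crb1, -0.075 to 0.051 for Crb2, -0.24 to 0.24 for Mpp5, -0.016 to 0.078 for Mpp3, -0.11 to 0.15 for Prkci, -0.037 to 0.032 for Ctnnb1 and -0.13 to 0.00045 for Tjp1. Cdh2 (-0.24 to -0.09), Pard3 (-0.19 to -0.04) and Ctnna1 (-0.13 to -0.0057) stayed below 0. The log2 ratio differences ranged from -0.046 to 0.38 for Crb2 over Crb1, -0.16 to 0.23 for Mpp3 over Mpp5 and -0.073 to 0.35 for Prkci over Pard3. Those of Cdh2 over Ctnnb1 (-0.21 to -0.12) and Ctnna1 over Ctnnb1 (-0.10 to -0.03) stayed below 0. When library totals set the scaling, the median of the 10 was -0.0094, and Crb2 (0.017), Mpp5 (0.026) and Ctnnb1 (0.026) turned sign. Mpp5 also turned with voom weights (0.0072) and with thinned counts (0.0028). Without a trend in limma 0 genes passed (0 higher, 0 lower, 483 at an unadjusted p under 0.05), and without the filter 1 gene passed in the lower direction. The cause was not tested. Under the settings with all libraries, the values of the 10 genes and of the 5 ratios were counted together. Of these, 65 kept their direction and their side of the threshold, and the 5 named above turned sign. No paired analysis was possible because the labels give the samples no replicate numbers shared between the groups and the libraries could not be tied to labels.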
